A study of Homo sapiens with 12 samples.

Results

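The genes described here are the YAP and TAZ coactivators, TEAD transcription factors and classic YAP and TAZ target genes in 624Mel cells, an established human melanoma cell line. The 10 genes were chosen by name, with earlier results of these data known. They were YAP1, WWTR1, TEAD1, TEAD4, CCN1, CCN2, AJUBA, ANKRD1, AMOTL2 and LATS2. All 10 were found once among the 40173 gene IDs of the expression table. RNA was sequenced from 12 libraries, 3 in each of 4 conditions: cells transfected with a control siRNA (siCTRL), siCTRL cells given interferon gamma (siCTRL + IFNγ), cells transfected with an siRNA against MITF (siMITF), and siMITF cells given interferon gamma (siMITF + IFNγ). MITF is the transcription factor that drives the melanocytic programme, and its knockdown was used to dedifferentiate the cells. All 4 conditions share the cell line and the transfection step. IFNγ was given at 5 ng/mL from 24 hours after transfection, and cells were collected 48 hours after transfection. The knockdown is transient and was made in 1 cell line, so the values describe that line only.

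YAP1 and TAZ, the product of WWTR1, are coactivators that bind no DNA themselves. They enter the nucleus when the Hippo kinases are inactive and bind TEAD factors, which recognise the DNA. When the Hippo pathway is active, the kinases LATS1 and LATS2 phosphorylate YAP and TAZ, which are then kept in the cytoplasm or degraded. Several target genes encode inhibitors of YAP and TAZ or secreted matrix proteins. The levels of CCN1, CCN2 and ANKRD1 transcripts are widely used as a readout of YAP and TAZ activity. In melanoma, YAP, TAZ and TEAD activity is known mainly from undifferentiated, invasive cells.

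TEAD factors recognise the letters CATTCC. The RefSeq promoter sequences of 7 of the 10 genes were searched for these letters on both strands, over the 250 bases before each annotated start site, while TEAD1, TEAD4 and CCN1 had no entry. The letters occurred before 5 of the 10 start sites of these genes, with 1 start site each for CCN2, ANKRD1, AMOTL2, AJUBA and YAP1. Across 35116 promoters of the same length 11.9% held them at least once, 0.940% at least 2 times and 0.0826% at least 3 times. Of the genes that held the letters, CCN2, ANKRD1 and AMOTL2 rose with siMITF, and YAP1 and AJUBA did not pass the test without IFNγ. WWTR1 rose but did not hold the letters. Sequences of 4 of the genes that held them are shown, those of CCN2, ANKRD1, AMOTL2 and YAP1. Each is written 5′ to 3′ on the strand of the gene with the last base next to the start site, and capitals mark CATTCC or its reverse complement GGAATG and, in YAP1, the E-box letters CACGTG.
CCN2: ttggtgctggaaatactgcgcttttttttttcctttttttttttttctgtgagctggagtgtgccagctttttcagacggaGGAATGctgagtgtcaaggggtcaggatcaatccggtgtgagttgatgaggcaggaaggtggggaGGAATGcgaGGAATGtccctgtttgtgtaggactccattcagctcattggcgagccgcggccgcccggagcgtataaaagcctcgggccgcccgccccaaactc
ANKRD1: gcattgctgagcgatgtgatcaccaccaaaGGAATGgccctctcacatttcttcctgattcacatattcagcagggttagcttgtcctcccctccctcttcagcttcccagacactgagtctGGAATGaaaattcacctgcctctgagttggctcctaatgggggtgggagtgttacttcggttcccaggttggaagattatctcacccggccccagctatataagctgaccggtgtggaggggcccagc
AMOTL2: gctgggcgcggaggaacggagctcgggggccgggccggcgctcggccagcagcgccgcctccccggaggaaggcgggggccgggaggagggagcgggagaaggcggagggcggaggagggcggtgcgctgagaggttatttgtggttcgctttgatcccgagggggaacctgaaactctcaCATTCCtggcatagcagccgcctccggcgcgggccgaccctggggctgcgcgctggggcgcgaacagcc
YAP1: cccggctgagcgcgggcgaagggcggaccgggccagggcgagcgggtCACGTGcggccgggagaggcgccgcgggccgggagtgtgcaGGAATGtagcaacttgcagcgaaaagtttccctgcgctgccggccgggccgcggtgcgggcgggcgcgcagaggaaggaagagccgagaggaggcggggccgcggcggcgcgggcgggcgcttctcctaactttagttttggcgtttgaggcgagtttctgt
In the GRCh38.p14 build the CCN2 stretch is chr6:131951373-131951622 on the minus strand, and that of ANKRD1 is chr10:90921088-90921337 on the minus strand. The AMOTL2 stretch lies before the second of 2 annotated start sites at chr3:134374448-134374697 on the minus strand, and the YAP1 stretch is chr11:102110197-102110446 on the plus strand.

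CCN2 held the TEAD letters 3 times, from 169 to 164, 104 to 99 and 95 to 90 bases upstream. ANKRD1 held them 2 times, from 220 to 215 and 128 to 123 bases upstream. The other matches were single ones, from 69 to 64 bases before the second start site of AMOTL2, from 59 to 54 before the second of AJUBA and from 162 to 157 before that of YAP1. The letters were not in these windows of WWTR1 and LATS2.

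The same windows were searched for letters of other factors. The E-box CACGTG, which MITF and related factors recognise, was found in YAP1 alone, from 203 to 198 bases upstream, and in 6.34% of all promoters. The AP-1 letters TGANTCA were found in ANKRD1 alone, from 195 to 189 bases upstream, and in 6.57% of all promoters. No window of the 7 genes held the M-box TCATGTG (2.52% of all promoters), the interferon-responsive GAS letters TTCNNNGAA (6.57%) or the CArG box of serum response factor (1.16%). None of the matches overlapped another. A match describes the letters only, and binding was not measured.

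**Figure D1:**
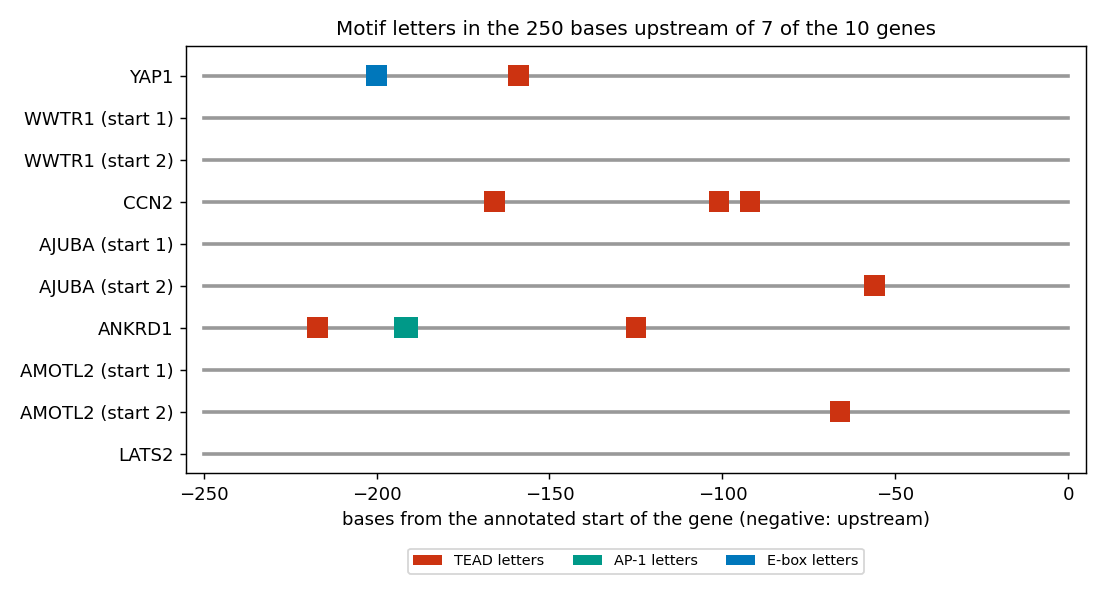
Motif letters in the 250 bases before each annotated start site of the 7 genes with a promoter entry, by distance from the start in bases. Coloured blocks are matches drawn to scale, with 3 TEAD matches in CCN2 and 2 in ANKRD1.

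The deposited values are TPM, a measure of transcript abundance relative to the whole library that is divided by transcript length and can be compared between genes. Differences were tested on log2(TPM + 1) with limma over 12773 gene IDs, with p-values adjusted over all of them, and folds below are on that scale unless a ratio of means is named. The siRNA target, MITF, had 211 ± 21.7 TPM (SD, n = 3) in siCTRL and 42.5 ± 6.87 in siMITF libraries, and 216 ± 50.1 and 48.0 ± 9.23 with IFNγ. All 7 melanoma markers reached 2 TPM, with sums of 7219 to 9613 TPM in siCTRL libraries with or without IFNγ and 2335 to 2827 TPM in siMITF libraries. With siMITF 6 of the 7 were lower and S100B was higher (means of 81.8 and 167 TPM without IFNγ). Mitochondrial genes took 7.42% to 12.7% of TPM in the replicate 2 libraries, 12.8% to 16.9% in replicate 1 and 14.0% to 16.1% in replicate 3. In bulk RNA, fewer cells of a type cannot be told apart from less RNA per cell.

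Knockdown of MITF raised WWTR1, CCN1, CCN2, ANKRD1, AMOTL2 and TEAD1 without IFNγ, so that 6 of the 10 genes were higher and 0 were lower at an adjusted p under 0.05 (limma). Of all tested genes 21.0% were higher and 13.8% were lower in that comparison. The 6 became 5, with TEAD1 lost, without siCTRL replicate 1, 2 or 3, siMITF replicate 1 or 2, or a filter on low values. With IFNγ in both conditions, 5 of the 10 were higher and 0 were lower, beside 18.4% and 14.7% of all tested genes. The median log2 fold change of the 10 genes was 0.75 without and 0.60 with IFNγ, while that of all tested genes was 0.06 and 0.03. The median with IFNγ was 0.38 without siCTRL + IFNγ replicate 1. Without siMITF + IFNγ replicate 2, ANKRD1 was not tested and the medians of the other 9 genes were 0.46 and 0.26. A change of 2-fold or more, in genes averaging 2 TPM or more on either side, was reached by WWTR1, CCN1, CCN2 and AMOTL2 without IFNγ, or 4 of 10, beside 3.22% of all tested genes. With IFNγ it was reached by WWTR1, CCN1 and ANKRD1, or 3 of 10, beside 3.12%. ANKRD1 entered the test only through a condition in which it was high, and leaving it out gave 5 of 9 genes higher without IFNγ and 4 of 9 with it, of which 4 and 2 reached 2-fold. Replicate numbers were shared across conditions, and when this number was added to the fit as a block the genes called higher were 7 without IFNγ (28.8% of all tested genes) and 6 with it (25.3%), through TEAD4 and YAP1.

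**Figure D2:**
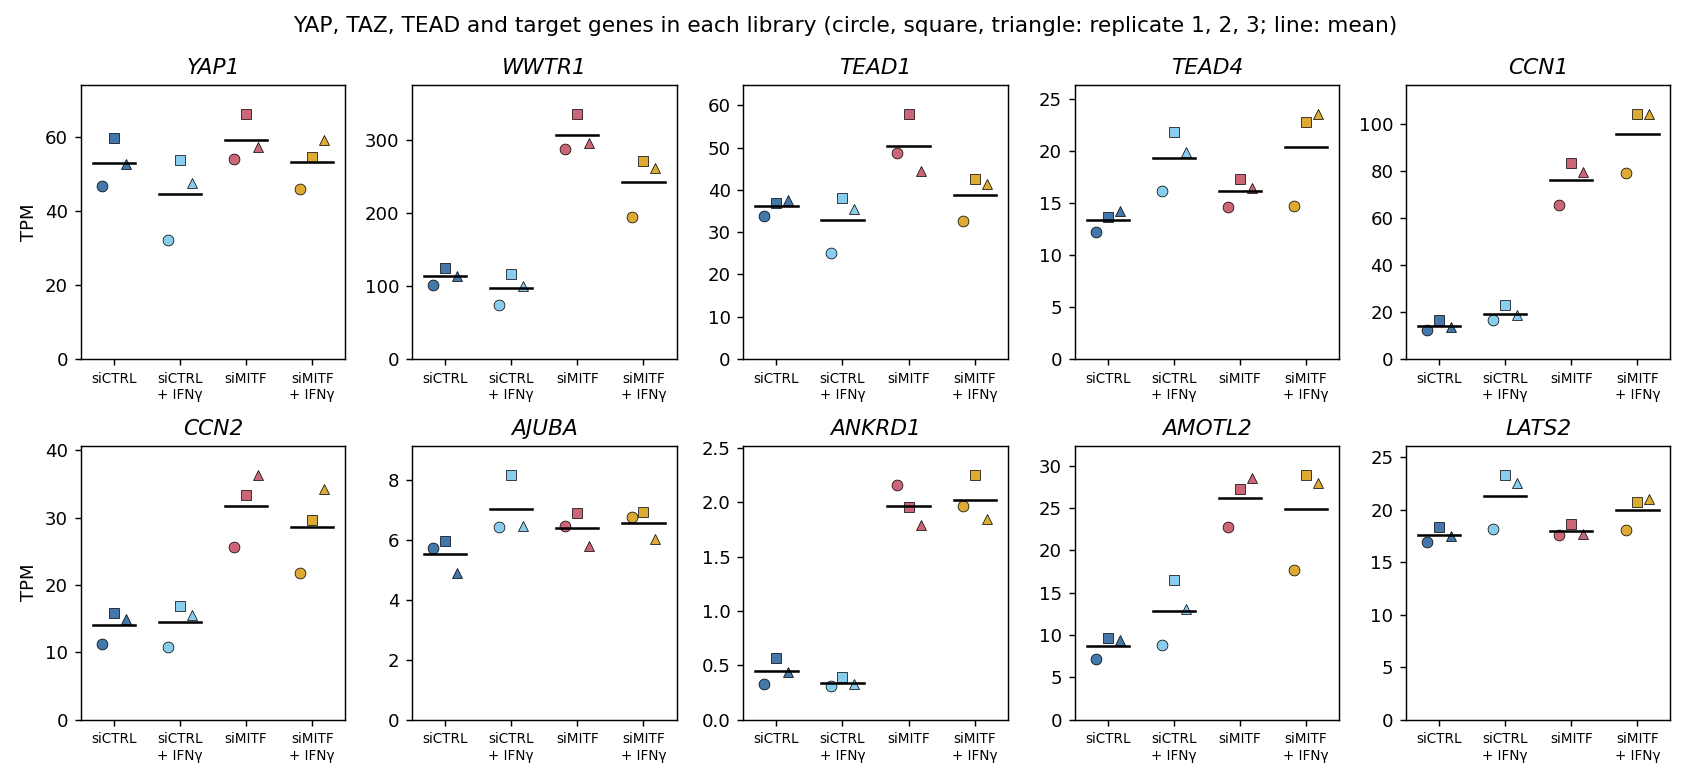
TPM of the 10 genes in each of the 12 libraries, by condition, with a symbol for each replicate number and a line at the mean of 3 libraries. WWTR1, CCN1, CCN2, ANKRD1 and AMOTL2 lay higher in every siMITF library than in every siCTRL library, and YAP1 and LATS2 overlapped. The share of all tested genes without overlap was not computed.

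The coactivators differed from each other. WWTR1 (ENSG00000018408, chr3:149517235-149736714, minus strand) had 101, 125 and 113 TPM in the siCTRL libraries and 288, 335 and 296 TPM in the siMITF libraries. Given IFNγ, its values were 74.0, 117 and 99.7 TPM in the siCTRL libraries and 195, 271 and 262 TPM in the siMITF libraries. The siMITF libraries lay above the siCTRL libraries in both settings, and WWTR1 was the most abundant of the 10 transcripts in all 12. It rose 2.70-fold without IFNγ (log2 fold change 1.43, SE 0.16, adjusted p = 2.1e-05, limma) and 2.51-fold with it (1.33, SE 0.16, adjusted p = 4.4e-05).

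YAP1 (ENSG00000137693, chr11:102110447-102233424, plus strand) had 46.7, 59.6 and 52.6 TPM in the siCTRL libraries and 54.0, 66.1 and 57.2 TPM in the siMITF libraries. In the presence of IFNγ it had 32.2, 53.7 and 47.5 TPM in the siCTRL libraries and 46.0, 54.7 and 59.1 TPM in the siMITF libraries. The conditions overlapped throughout, and the lowest value was in siCTRL + IFNγ replicate 1. The log2 difference between siMITF and siCTRL was 0.16 without IFNγ (95% confidence interval -0.21 to 0.52, adjusted p = 0.511, limma) and 0.28 with it (-0.08 to 0.64, adjusted p = 0.228). With the replicate block the second of these had an adjusted p of 0.0289.

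The ratio of WWTR1 to YAP1 TPM is formed within a library, so a scaling of the whole library cancels in it. It was 2.16, 2.10 and 2.14 in siCTRL libraries and 2.30, 2.18 and 2.10 in siCTRL + IFNγ libraries. In siMITF libraries it was 5.34, 5.07 and 5.17, and in siMITF + IFNγ libraries 4.25, 4.96 and 4.43. All 6 siMITF libraries lay above all 6 siCTRL libraries, and the siMITF libraries with IFNγ lay below those without it. For any pair of conditions, 3 libraries against 3 allow no p below 0.1 in a two-sided exact permutation test. The sum of YAP1 and WWTR1 was 166 ± 18.6 TPM with siCTRL and 366 ± 31.4 TPM with siMITF (SD, n = 3), and 141 ± 32.8 and 296 ± 47.5 TPM with IFNγ.

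**Figure D3:**
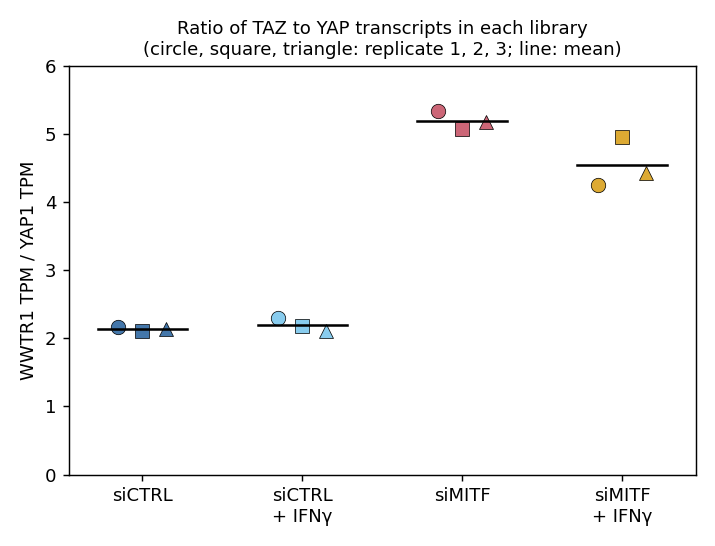
Ratio of WWTR1 to YAP1 TPM in each library, by condition, with a symbol for each replicate number and a line at the mean. It spans 2.10 to 2.30 in the siCTRL libraries with and without IFNγ, 5.07 to 5.34 in the siMITF libraries and 4.25 to 4.96 with IFNγ.

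Of the DNA-binding partners, TEAD1 (ENSG00000187079, chr11:12674421-12944737, plus strand) had 33.9, 36.9 and 37.6 TPM in the siCTRL libraries and 48.7, 57.9 and 44.5 TPM in the siMITF libraries. It rose 1.38-fold (log2 fold change 0.46, SE 0.15, adjusted p = 0.0336, limma). This call was lost when siCTRL replicate 1, 2 or 3 or siMITF replicate 1 or 2 was left out, with adjusted p-values of 0.105, 0.0656, 0.0649, 0.0685 and 0.138, and without a filter on low values (0.0916). With IFNγ, TEAD1 had 25.0, 38.1 and 35.6 TPM in the siCTRL libraries and 32.6, 42.5 and 41.5 TPM in the siMITF libraries. These overlapped, and the log2 difference of 0.25 (95% confidence interval -0.09 to 0.58) had an adjusted p of 0.248.

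TEAD4 (ENSG00000197905, chr12:2959330-3040676, plus strand) had 12.2, 13.6 and 14.2 TPM in the siCTRL libraries and 14.6, 17.3 and 16.4 TPM in the siMITF libraries. The siMITF libraries lay just above, with a log2 difference of 0.25 (95% confidence interval -0.10 to 0.60) and an adjusted p of 0.256 in limma, or 0.0455 with the replicate block. With IFNγ it had 16.1, 21.8 and 19.9 TPM in the siCTRL libraries and 14.7, 22.8 and 23.5 TPM in the siMITF libraries, which overlapped (log2 difference 0.06, 95% confidence interval -0.30 to 0.41, adjusted p = 0.827).

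TEAD1 was the main TEAD transcript in every library. TEAD3 had means of 4.63 to 5.79 TPM over the 4 conditions and TEAD2 of 0.950 to 1.35 TPM. The 4 TEAD genes summed to 55.1 ± 3.32 TPM in siCTRL, 58.9 ± 10.4 in siCTRL + IFNγ, 72.7 ± 7.90 in siMITF cells and 66.0 ± 10.8 in siMITF + IFNγ libraries (SD, n = 3). Of the list of other TEAD factors and VGLL cofactors, some of which compete with YAP and TAZ for TEAD, 2 of 6 were tested and neither passed in a comparison of siMITF with siCTRL. VGLL4, a repressor of TEAD activity, had means of 25.8 to 32.1 TPM, and VGLL1 was listed at 0 in every library.

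The secreted matrix protein genes CCN1 and CCN2, also named CYR61 and CTGF, both rose. CCN1 (ENSG00000142871, chr1:85580761-85584589, plus strand) had 12.4, 16.4 and 13.6 TPM in the siCTRL libraries and 65.5, 83.5 and 79.6 TPM in the siMITF libraries. Given IFNγ, its values were 16.4, 23.0 and 18.5 TPM in the siCTRL libraries and 78.9, 104 and 104 TPM in the siMITF libraries. No siMITF library came near a siCTRL library, and on the log2(TPM + 1) scale CCN1 had the largest fold change of the 10 genes, at 5.12-fold without IFNγ (log2 fold change 2.35, SE 0.15, adjusted p = 1.6e-07, limma) and 4.77-fold with it (2.25, SE 0.15, adjusted p = 2.6e-07). The ratio of its mean TPM was 5.40 without and 4.96 with IFNγ.

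CCN2 (ENSG00000118523, chr6:131948176-131951372, minus strand) had 11.2, 15.9 and 14.9 TPM in the siCTRL libraries and 25.6, 33.4 and 36.3 TPM in the siMITF libraries. In the presence of IFNγ it had 10.8, 16.9 and 15.6 TPM in the siCTRL libraries and 21.8, 29.7 and 34.3 TPM in the siMITF libraries. The groups did not overlap in either setting, and replicate 1 was the lowest library in each of the 4 conditions. CCN2 rose 2.18-fold without IFNγ (log2 fold change 1.13, SE 0.20, adjusted p = 8.6e-04, limma) and 1.91-fold with it (0.94, SE 0.20, adjusted p = 0.00324). In siCTRL cells the means of CCN1 and CCN2 were 14.1 ± 2.05 and 14.0 ± 2.47 TPM (SD, n = 3), and in siMITF cells 76.2 ± 9.45 and 31.8 ± 5.56 TPM.

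ANKRD1 (ENSG00000148677, chr10:90912096-90921087, minus strand) encodes an ankyrin repeat protein best known from muscle. It was the least abundant of the 10 genes, with 0.330, 0.565 and 0.441 TPM in siCTRL and 2.16, 1.96 and 1.79 TPM in siMITF libraries. With IFNγ it had 0.308, 0.389 and 0.329 TPM in the siCTRL libraries and 1.97, 2.25 and 1.85 TPM in the siMITF libraries. The siMITF libraries lay above in both settings, and the ratio of mean TPM was 4.43 without IFNγ and, at 5.91, above that of CCN1 with it. On the log2(TPM + 1) scale, which shrinks changes of such low values, ANKRD1 rose 2.06-fold (log2 fold change 1.04, SE 0.11, adjusted p = 9.1e-06, limma) and 2.25-fold (1.17, SE 0.11, adjusted p = 3.6e-06). It was tested only because its siMITF + IFNγ mean of 2.02 TPM exceeded the limit of 2 TPM. In a fit with no filter on low values, which does not depend on that level, its adjusted p-values were 2.3e-05 and 1.1e-05 (limma).

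AMOTL2, LATS2 and AJUBA, regulators that act on YAP and TAZ or on their kinases, did not move together. AMOTL2 (ENSG00000114019, chr3:134355347-134375479, minus strand), an angiomotin family protein that binds YAP and keeps it out of the nucleus, had 7.21, 9.64 and 9.42 TPM in the siCTRL libraries and 22.8, 27.2 and 28.6 TPM in the siMITF libraries. Given IFNγ, its values were 8.86, 16.5 and 13.1 TPM in the siCTRL libraries and 17.7, 28.9 and 28 TPM in the siMITF libraries. The groups did not overlap, but with IFNγ the lowest siMITF library was close to the highest siCTRL library. AMOTL2 rose 2.79-fold without IFNγ (log2 fold change 1.48, SE 0.22, adjusted p = 1.8e-04, limma) and 1.88-fold with it (0.91, SE 0.22, adjusted p = 0.00611).

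LATS2 (ENSG00000150457, chr13:20973036-21061586, minus strand), a kinase that inactivates YAP and TAZ, had 16.9, 18.4 and 17.5 TPM in the siCTRL libraries and 17.6, 18.6 and 17.7 TPM in the siMITF libraries. In the presence of IFNγ it had 18.2, 23.3 and 22.5 TPM in the siCTRL libraries and 18.1, 20.7 and 21.0 TPM in the siMITF libraries. The siMITF and siCTRL libraries overlapped in both settings, and the interval of the log2 difference was narrow, from -0.19 to 0.24 around 0.03 without IFNγ (adjusted p = 0.855, limma) and from -0.31 to 0.12 around -0.09 with it (adjusted p = 0.527). The sign without IFNγ turned to -0.02 under quantile normalization.

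AJUBA (ENSG00000129474, chr14:22971177-22982551, minus strand), a LIM domain scaffold that holds LATS kinases in check, had 5.74, 5.95 and 4.89 TPM in the siCTRL libraries and 6.47, 6.91 and 5.78 TPM in the siMITF libraries. With IFNγ it had 6.42, 8.16 and 6.46 TPM in the siCTRL libraries and 6.75, 6.94 and 6.03 TPM in the siMITF libraries. These overlapped in both settings, with log2 differences of 0.18 without IFNγ (95% confidence interval -0.07 to 0.43, adjusted p = 0.263, limma) and -0.08 with it (-0.33 to 0.17, adjusted p = 0.652).

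**Figure D4:**
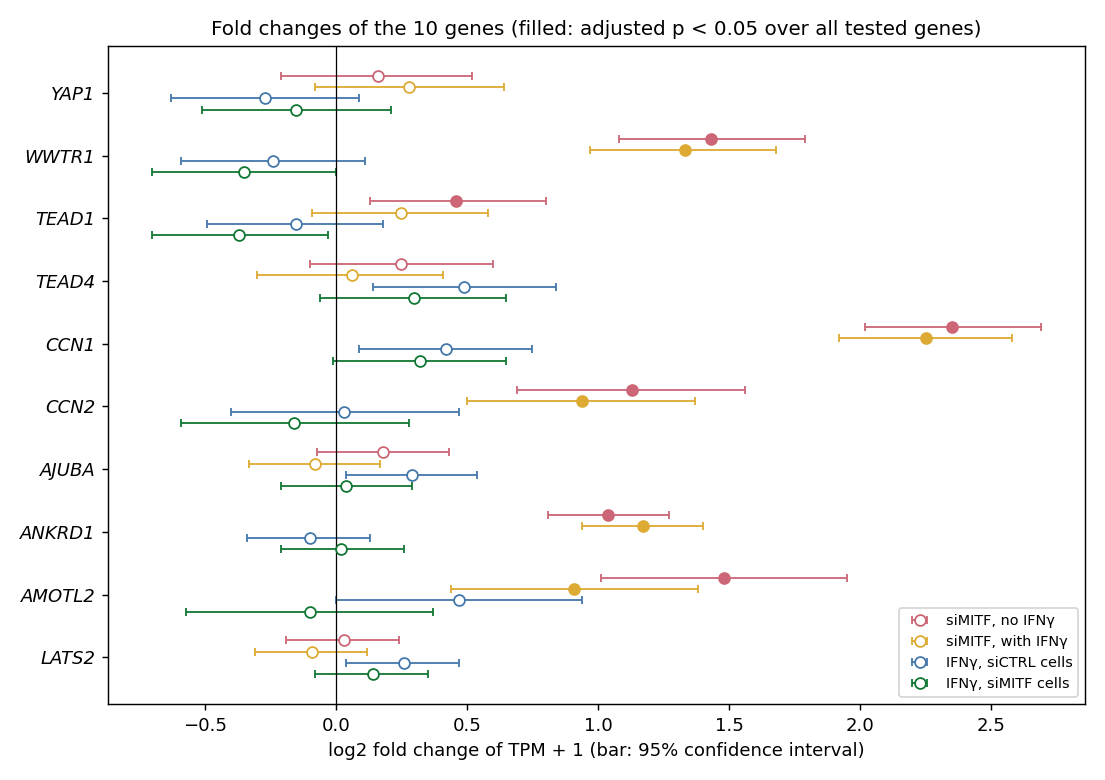
Log2 fold changes of the 10 genes with 95% confidence intervals for siMITF against siCTRL without and with IFNγ, and for IFNγ against none in siCTRL and siMITF cells. Filled points passed an adjusted p under 0.05, which 6 genes did for siMITF without IFNγ, 5 with it, and 0 for IFNγ in either cell state.

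The effect of IFNγ alone was compared within each cell state. None of the 10 genes passed the test in siCTRL cells, where 12.9% of all tested genes were called in either direction, or in siMITF cells, where 20.2% were called (limma). At an unadjusted p under 0.05, 5 of the 10 passed in siCTRL cells, beside 26.3% of all tested genes, and 1 in siMITF cells, beside 33.8%. With the replicate number as a block, TEAD4, CCN1, AMOTL2, AJUBA and LATS2 rose and WWTR1 fell in siCTRL cells, and TEAD4 and CCN1 rose and WWTR1 and TEAD1 fell in siMITF cells. In the blocked fit 25.7% and 35.7% of all tested genes were called in the respective comparison, so that 6 of 10 and 4 of 10 stand beside those shares.

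TEAD4 was higher in each siCTRL + IFNγ library than in any siCTRL library, with a log2 difference of 0.49 (95% confidence interval 0.14 to 0.84, adjusted p = 0.0664, limma, and 0.00271 with the block). In siMITF cells the libraries overlapped and the log2 difference was 0.30 (-0.06 to 0.65, adjusted p = 0.222, and 0.0311 with the block). CCN1 differed by 0.42 in siCTRL cells (0.09 to 0.75, adjusted p = 0.0937, and 0.00107 with the block) and by 0.32 in siMITF cells (-0.01 to 0.65, adjusted p = 0.159, and 0.00449 with the block). Both genes were higher with IFNγ in all 6 pairs of libraries with one number. For TEAD4 in siMITF replicate 1 the values were nearly the same, at 14.6 TPM without and 14.7 TPM with IFNγ. The share of all genes that moved one way in all 6 pairs was not computed.

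WWTR1 went the other way, with log2 differences of -0.24 in siCTRL cells (95% confidence interval -0.59 to 0.11, adjusted p = 0.393, limma, and 0.0491 with the block) and -0.35 in siMITF cells (-0.70 to 0.00, adjusted p = 0.154, and 0.00592 with the block). It was lower with IFNγ in all 6 pairs, again with no share of all genes computed. TEAD1 differed by -0.37 in siMITF cells, where the IFNγ libraries lay below the others (-0.70 to -0.03, adjusted p = 0.113, and 0.0164 with the block), and by -0.15 in siCTRL cells (adjusted p = 0.588, and 0.315 with the block).

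Of the targets and regulators, AMOTL2 differed by 0.47 with IFNγ in siCTRL cells (adjusted p = 0.190, limma, and 0.00557 with the block) and by -0.10 in siMITF cells (adjusted p = 0.789). LATS2 differed by 0.26 and AJUBA by 0.29 in siCTRL cells (adjusted p = 0.118 and 0.125, and 0.0233 and 0.0252 with the block). CCN2 and ANKRD1 stayed near 0, with log2 differences of 0.03 and -0.10 in siCTRL cells and of -0.16 and 0.02 in siMITF cells, and neither passed with the block. Under quantile normalization ANKRD1 fell in siCTRL cells (-0.53, adjusted p = 0.00455). YAP1 differed by -0.27 in siCTRL cells (95% confidence interval -0.63 to 0.09, adjusted p = 0.341) and by -0.15 in siMITF cells (adjusted p = 0.565).

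Part of the spread lay in 1 library. In siCTRL + IFNγ replicate 1, YAP1, WWTR1, TEAD1, CCN2 and ANKRD1 had their lowest values of all 12 libraries, and mitochondrial genes took 16.9% of TPM. Without this library TEAD4, AMOTL2 and LATS2 passed for IFNγ in siCTRL cells, with adjusted p-values of 0.0384, 0.0470 and 0.0208, and TEAD1 fell in siMITF cells (0.0372). TEAD4 also passed in both cell states without siMITF + IFNγ replicate 1 (0.0113 and 0.0164), in which mitochondrial genes likewise took 16.9% of TPM. With TPM rescaled without mitochondrial genes, a step chosen after seeing the data, TEAD4, CCN1, AJUBA and LATS2 passed in siCTRL cells (0.0300, 0.0278, 0.0287 and 0.0269).

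The effect of siMITF was not shown to depend on IFNγ for any of the 10 genes. The interaction passed for 0 of them in limma, beside 0.947% of all tested genes, and for 0 with the block, beside 2.16%. At an unadjusted p under 0.05 it was 0 of 10, beside 7.67%, and 1 of 10 with the block, beside 13.7%. The largest interaction was that of AMOTL2, at -0.57 on the log2 scale (95% confidence interval -1.24 to 0.10, adjusted p = 0.762, and 0.0741 with the block). That of CCN1 was -0.10 (-0.57 to 0.37) and that of WWTR1 -0.11 (-0.61 to 0.39).

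Against untreated siCTRL cells, the combination of siMITF and IFNγ raised WWTR1, TEAD4, CCN1, CCN2, ANKRD1 and AMOTL2. These are 6 of 10 higher and 0 lower, beside 21.1% of all tested genes higher and 23.4% lower. CCN1 was 6.39-fold higher (log2 fold change 2.68, SE 0.15, adjusted p = 2.2e-08, limma), AMOTL2 2.61-fold, WWTR1 2.13-fold, ANKRD1 2.09-fold and CCN2 1.96-fold. The first 4 of these reached 2-fold, or 4 of 10, beside 5.61% of all tested genes. Without ANKRD1 these counts were 5 of 9 and 3 of 9. TEAD4 rose 1.46-fold (0.55, SE 0.16, adjusted p = 0.0150), which was lost without siCTRL replicate 1 (0.0551) or siMITF + IFNγ replicate 2 or 3 (0.0589 and 0.0659). TEAD1 was at 0.09 (adjusted p = 0.648) and YAP1 at 0.01 (95% confidence interval -0.36 to 0.37). With the block 7 were higher, beside 25.7% of all tested genes, through AJUBA (adjusted p = 0.0480).

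The wider pathway was read from lists of genes, written with earlier results of these data known, so their counts are descriptions. Of 24 upstream Hippo regulators 22 were tested, and siMITF raised 12 and lowered 1 without IFNγ, beside 21.0% and 13.8% of all tested genes. With IFNγ it raised 9 and lowered 1, beside 18.4% and 14.7%. The median log2 fold change was 0.37 without IFNγ and 0.12 with it, and the second turned to -0.02 without siCTRL + IFNγ replicate 1, when 10 of 22 in place of 16 had a positive change. It was 0.24 and 0.21 without siCTRL + IFNγ replicate 2 or siMITF + IFNγ replicate 1, and 0.08 without siMITF + IFNγ replicate 3. With no filter on low values 9 of 24 were higher and 1 was lower in either setting, beside 10.2% and 6.43% of all genes without IFNγ and 9.31% and 6.78% with it. On the log2 scale, the largest rises without IFNγ were those of AMOT, an angiomotin, at 1.35 (adjusted p = 3.2e-04, limma), the atypical cadherin FAT1 at 1.09 (6.1e-06), the YAP-binding phosphatase PTPN14 at 1.07 (9.7e-04) and AMOTL1 at 0.98 (0.00196). The 3 angiomotin genes AMOT, AMOTL1 and AMOTL2 were thus all higher. MOB1B, an activator of the LATS kinases, fell by 0.46 (0.00384). The upstream kinase STK3, named after its values were seen, was higher with siMITF (0.82, 9.4e-06) and with IFNγ (0.65 in siCTRL cells, 1.7e-04, and 0.66 in siMITF cells, 1.2e-04). For IFNγ in siCTRL cells, 2 of the 22 regulators were higher and 2 lower, beside 12.9% of all tested genes in either direction. In siMITF cells 1 was higher and 2 were lower, beside 20.2%. RASSF1 differed by -0.50 and -0.70 in these 2 comparisons (adjusted p = 0.00268 and 1.6e-04, limma with the block).

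Mean TPM of AMOT was 8.14 ± 0.873 in siCTRL and 22.3 ± 2.83 in siMITF libraries (SD, n = 3), that of AMOTL1 20.3 ± 2.08 and 41.1 ± 4.72, that of FAT1 42.5 ± 3.83 and 91.9 ± 12, and that of PTPN14 5.67 ± 0.428 and 13 ± 1.74. The siMITF libraries of all 4, which were named for having the largest rises, lay above the siCTRL libraries. No share of all tested genes was computed for this. STK3 had 7.46 ± 0.384 TPM in siCTRL, 12.3 ± 0.629 in siCTRL + IFNγ, 13.9 ± 0.622 in siMITF libraries and 22.6 ± 1.47 in siMITF + IFNγ libraries, and its interaction was 0.01 (adjusted p = 0.998).

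Among 23 further genes known as YAP and TAZ targets, 11 were tested, of which 7 were higher and 1 was lower with siMITF in either IFNγ setting, beside the same shares of all tested genes. With no filter on low values 10 of 23 were higher and 2 lower without IFNγ, beside 10.2% and 6.43% of all genes. With IFNγ 8 were higher and 2 lower, beside 9.31% and 6.78%. The median over all 23 was 0.28 without and 0.15 with IFNγ, against 0.97 and 0.79 over the 11. On the log2 scale and without IFNγ, MYOF, a membrane repair protein, rose by 1.83 (adjusted p = 9.3e-06, limma), the Hedgehog transcription factor GLI2 by 1.64 (4.7e-04), FJX1 by 1.59 (1.8e-07) and CRIM1 by 1.24 (6.9e-06). FJX1 went from 4.30 ± 0.192 to 15 ± 0.397 TPM (SD, n = 3). MYOF, GLI2 and CRIM1 had siCTRL means of 0.886, 0.509 and 0.628 TPM and were tested through their siMITF levels. With no filter their adjusted p-values without IFNγ were 2.0e-04, 0.00387 and 6.8e-05 (limma). MYOF, GLI2 and CRIM1 count among the 7 genes higher in either setting. Under IFNγ, GLI2 averaged 0.238 TPM after control siRNA and 1.21 TPM after MITF knockdown, each below the limit of 2 TPM. Its rise with IFNγ (log2 fold change 0.79, adjusted p = 0.0405, limma) did not pass with no filter (0.113). MYOF and CRIM1 still passed there (8.9e-04 and 8.2e-05). ARHGAP29 was lower, from 51.0 ± 5.28 to 25.1 ± 2.27 TPM (log2 fold change -0.99, adjusted p = 3.8e-04). GLI2 fell with IFNγ in siMITF cells by 1.09 (0.0133), from 3.58 ± 0.866 to 1.21 ± 0.728 TPM, which was 0.0511 with no filter, and its interaction of -0.85 did not pass (0.634).

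Of the other 4 CCN genes only CCN3 was tested. It rose from 23.9 ± 2.16 to 71.2 ± 2.49 TPM (SD, n = 3, log2 fold change 1.54, adjusted p = 4.2e-07, limma) and, with IFNγ, from 22.0 ± 3.99 to 72.2 ± 2.50 TPM (1.68, 2.2e-07). A list of 24 genes induced by serum and by the factors SRF, MRTF and AP-1, pathways that share targets with YAP, was mixed. Of 19 tested, 7 were higher and 5 lower without IFNγ (median 0.21), and 6 and 4 with it (median 0.10), beside the same shares of all tested genes. The 7 became 4 without siCTRL replicate 1 or 3 or siMITF replicate 1. With no filter 5 of 24 were higher and 4 lower without IFNγ, beside 10.2% and 6.43% of all genes. With IFNγ and no filter 5 were higher and 2 lower, beside 9.31% and 6.78%. With IFNγ the 4 lower became 2 without siCTRL + IFNγ replicate 2 or 3 or siMITF + IFNγ replicate 1, and also with no filter or only the compared conditions in the fit. The median with IFNγ was 0.17 and 0.22 without siCTRL + IFNγ replicate 2 and siMITF + IFNγ replicate 1. On the log2 scale and without IFNγ, TAGLN, a smooth muscle actin-binding protein, rose by 1.74 (adjusted p = 9.5e-07, limma), the AP-1 subunit JUN by 1.32 (4.6e-06), CNN2 by 0.64 (1.1e-05) and FOSL1 by 0.55 (1.4e-04). The immediate early gene EGR1 fell by 1.29 (6.5e-04), FHL2 by 0.88 (9.5e-07), VCL by 0.66 (0.00994) and EGR3 by 0.65 (0.0325). TAGLN also rose with IFNγ in siCTRL cells, by 1.14 (9.5e-05). It had means of 0.734, 2.84, 4.80 and 9.16 TPM over the siCTRL, siCTRL + IFNγ, siMITF and siMITF + IFNγ libraries. Its siCTRL mean lay under the limit of 2 TPM, so TAGLN was tested only through conditions in which it was higher. It counts among the 7 genes higher without IFNγ.

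Over the 12 libraries, the genes whose log2(TPM + 1) followed CCN1 most closely were SLC1A5, a glutamine transporter (Pearson's r = 0.995), JUN (0.995), the matrix protease MMP2 (0.994), ENPP2, the enzyme that makes lysophosphatidic acid (0.993), and ZNF385A (0.993). For CCN2 they were ZNF436 (0.987), ASB13 (0.981), SMAD7, an inhibitor of TGF-β signalling (0.981), MOCOS (0.979) and NUDT3 (0.979). The 12 points fall into 4 conditions and share the library scaling, so these values describe likeness of pattern and carry no test. SLC1A5 had means of 171, 193, 404 and 458 TPM over the siCTRL, siCTRL + IFNγ, siMITF and siMITF + IFNγ libraries, and ENPP2 13.7, 19.6, 51.2 and 64.0 TPM. SMAD7 had means of 14.7, 14.9, 22.8 and 21.7 TPM in the same order.

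CCN1, CCN2, ANKRD1 and TAGLN are also expressed by fibroblasts and other stromal cells. According to the study, its cells were grown as monocultures of melanoma lines. Marker genes of other cell types were read here as transcript levels, not as counts of cells. Of 7 fibroblast markers 2 reached 2 TPM, LUM and PDGFRA, and the sums were 6.37 to 7.95 TPM in siCTRL, 4.04 to 4.64 in siCTRL + IFNγ, 10.6 to 12.8 in siMITF libraries and 6.46 to 7.30 in siMITF + IFNγ libraries. The part of these markers in the results was not tested. COL3A1 was at most 0.0412 TPM and COL1A1 at most 1.24 TPM in any library. Of 4 endothelial markers none reached 1 TPM, with sums of 0.278 to 0.808 TPM. Of 5 keratinocyte markers KRT10 alone reached 2 TPM, with sums of 38.9 to 60.8 TPM, and KRT14 was at most 0.0721 TPM. Of 5 leukocyte markers CD68 and LYZ reached 2 TPM, with sums of 58.2 to 96.4 TPM in siCTRL and 25.8 to 40.8 TPM in siMITF libraries with or without IFNγ. CD68 made up most of the sum and was lower with siMITF (means of 71.5 and 27.3 TPM without IFNγ), LYZ was higher (2.44 and 4.74 TPM), and CD3E was listed at 0 in all libraries.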

How the data were processed

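RNA of 624Mel cells was sequenced in 12 libraries of 4 conditions. The authors trimmed reads with Trimmomatic 0.39, per the submitters' processing notes, and quantified transcripts with kallisto against GRCh38; the tool that summed transcripts to genes and the Ensembl release are not given in the sources used here. The deposited values are TPM per gene ID and library. The authors tested counts with DESeq2 1.26.0, and counts are not used here. TPM keep no depth, so no counting error or detection limit is given.

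TPM were transformed to log2(TPM + 1). Gene IDs that averaged 2 TPM or more in any condition (12773) entered one limma 3.58.1 model in R 4.3.3, which had a coefficient for each condition and moderated variances with an intensity trend. Tests were two-sided with Benjamini-Hochberg adjustment. Overlap of single libraries was read for named genes only, with no share over all genes, and is a description beside the tests. The script was tested on simulated data. The 18 pairs of libraries with one replicate number in different conditions had residual correlations of 0.102 to 0.625 (median 0.279), against a median of -0.196 for 36 pairs with different numbers. The numbers come from the sample titles and were taken to pair the libraries, and a blocked fit was run beside the main one. The study states that its experiments were repeated as independent biological replicates.

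Named list genes were up to 4 with the largest rise and 4 with the largest fall with siMITF among those passing the test, and those passing with at least a 2-fold IFNγ effect or an interaction. Promoters are from RefSeq (GRCh38.p14) and gene positions from GENCODE on GRCh38. The genes and lists were chosen with earlier results of these data known. Alternatives were pseudocounts of 0.1 and 0.5, no filter, a mean of at least 5 TPM, quantile normalization, median centring, no trend, only the conditions compared, the block, and each library left out. Rescaling without the 13 mitochondrial genes was added after seeing the data. Tables and figures used Python 3.11.15, pandas 2.3.3, numpy 2.4.6 and matplotlib 3.10.9.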

Additional observations from a re-analysis of the deposited data

How the results depend on the processing

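The genes called higher with siMITF stayed within 1.5 times the counts given under all 22 alternatives, and WWTR1, CCN1, CCN2, ANKRD1 and AMOTL2 passed wherever they were tested. ANKRD1 fell below the limits and was not tested at a mean of at least 5 TPM and without siMITF + IFNγ replicate 2. For IFNγ in siCTRL cells, 0 of the 10 genes passed, beside 868 higher and 784 lower of all 12773 tested genes. Under quantile normalization 3 were higher and 1 lower, beside 1178 and 1647 of all. Under median centring 5 were higher, beside 1238 higher and 1576 lower. With the replicate block 5 were higher and 1 lower, beside 1235 and 2046. Rescaled without mitochondrial genes, 4 were higher, beside 1155 higher and 1199 lower of 13032. In siMITF cells 3 were higher and 2 lower under quantile normalization, beside 1525 and 2471 of all tested genes. These were 3 and 2 under median centring, beside 1492 and 2318, and 2 and 2 with the block, beside 1426 and 3130. Leaving out 1 library gave 0 to 3 higher in siCTRL cells, beside 650 to 975 of all tested genes. In siMITF cells it gave 0 to 1 higher and 0 to 1 lower, beside 791 to 1134 and 768 to 1999. The block changed no call of the 10 genes other than those given beside the results. The cause of these differences was not tested. Over all genes, 52.5% of IFNγ calls in siCTRL cells were higher, against 41.7% under quantile normalization, 37.6% with the block and 65.1% with only the compared conditions in the fit.

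Signs turned for values near 0. LATS2 with siMITF was -0.02 under quantile normalization and -0.00 under median centring, and ANKRD1 with IFNγ in siMITF cells was -0.04 under quantile normalization. With 1 library left out, log2 differences ranged from -0.08 to 0.11 for YAP1 in the combination, -0.06 to 0.26 for TEAD4 with siMITF and IFNγ, and -0.13 to 0.02 for AJUBA in the same comparison. For IFNγ in siCTRL cells they ranged from -0.27 to 0.03 for TEAD1 and -0.11 to 0.21 for CCN2, and in siMITF cells from -0.30 to 0.02 for CCN2, -0.02 to 0.09 for AJUBA, -0.02 to 0.07 for ANKRD1 and -0.22 to 0.12 for AMOTL2. Interactions ranged from -0.09 to 0.27 for YAP1, -0.29 to 0.04 for WWTR1, -0.31 to 0.01 for TEAD4 and -0.21 to 0.03 for CCN1. None of these passed the test. Of the 5 genes nearest to CCN1 and to CCN2, 4 and 5 were the same with a pseudocount of 0.1.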
